A study of Mus musculus with 2 samples.

Results

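The keratin and skin barrier genes were taken by symbol: every protein-coding gene whose name starts with Krt and a digit, or with Krtap, Lce or Sprr, leaving out Krt7, Krt8 and Krt18. They numbered 143 of 21755 protein-coding genes on the autosomes and X in GENCODE mouse release 21 (build GRCm38, the mm10 of the peak lists), and comprised 50 keratins, 57 keratin-associated proteins (Krtap), 21 late cornified envelope genes (Lce) and 15 small proline-rich genes (Sprr). Trimethylation of histone H3 at lysine 27 (H3K27me3) was mapped by ChIP-seq in E14TG2a.4 (a line of embryonic stem cells from a male 129/Ola mouse, with a labelled embryonic age of 3.5 day). There was 1 group of 2 biological replicates, both grown from a single line and untreated as far as the labels say, so no condition was compared and no test was made. A gene was called marked when the window from 1 kb before to 1 kb after its annotated 5' end overlapped a peak of both replicates. The pluripotency genes Pou5f1, Nanog and Sox2 had no peak in that window in either replicate, although a peak list does not measure their expression.

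H3K27me3 is deposited by Polycomb repressive complex 2 and is known in embryonic stem cells for covering CpG-rich promoters of silent developmental regulators. Keratins are intermediate filament proteins that assemble from pairs of an acidic type I and a basic type II chain, and keratin-associated proteins crosslink the hair keratins in the hair shaft. Small proline-rich and late cornified envelope proteins are crosslinked into the envelope of the outermost epidermal cells, in the gene-dense region called the epidermal differentiation complex. Most of these genes are expressed in skin, hair and other stratified epithelia, and a few keratins in simple epithelia, and they are not known for a role in embryonic stem cells.

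Replicate 1 had 63651 peaks over 53.6 Mb and replicate 2 had 98582 peaks over 58.4 Mb, and bases under a peak of both made up 1.53% of the sequenced autosomes and X. Peaks were shorter in replicate 2, with a median of 373 bp against 547 bp, and no source gave the reads behind them.

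Of the 143 genes, 20 (14%) were marked, beside 26.1% of all protein-coding genes. A peak in a single replicate lay at 13 more (5 in replicate 1 alone and 8 in replicate 2 alone), where the share among all genes was 5.85%. The other 110 had no peak in either. The marks were unevenly spread over the families. Keratins were marked at 14 of 50 promoters (28.0%) and keratin-associated genes at 6 of 57 (10.5%), whereas no late cornified envelope gene and no small proline-rich gene was marked. Within the keratins, type II genes had 11 marked of 23 (47.8%) and type I genes had 3 of 27 (11.1%). The members of each family are neighbours on a chromosome, so these counts do not rest on independent genes.

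Among members marked, the windows of Krt87, Krtap17-1 and Krt82 were among the 4 with the highest mean signal rank. Their upstream sequences are printed because they show how different in CpG content marked promoters of these families were. Each is the 250 bases before the 5' end on the minus strand of GRCm38, 5' to 3', with CpG in capitals. Krt87 lies at chr15:101438805-101439054, Krtap17-1 at chr11:99993995-99994244 and Krt82 at chr15:101550668-101550917.
Krt87: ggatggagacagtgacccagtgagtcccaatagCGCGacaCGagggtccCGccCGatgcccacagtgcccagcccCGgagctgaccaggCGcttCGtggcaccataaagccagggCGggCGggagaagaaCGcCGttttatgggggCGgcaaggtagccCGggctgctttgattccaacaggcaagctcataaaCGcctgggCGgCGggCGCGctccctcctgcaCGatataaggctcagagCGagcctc
Krtap17-1: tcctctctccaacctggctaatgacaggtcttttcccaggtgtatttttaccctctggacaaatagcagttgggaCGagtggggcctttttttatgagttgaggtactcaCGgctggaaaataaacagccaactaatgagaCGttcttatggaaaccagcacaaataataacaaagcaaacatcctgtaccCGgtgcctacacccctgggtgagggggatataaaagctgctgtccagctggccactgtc
Krt82: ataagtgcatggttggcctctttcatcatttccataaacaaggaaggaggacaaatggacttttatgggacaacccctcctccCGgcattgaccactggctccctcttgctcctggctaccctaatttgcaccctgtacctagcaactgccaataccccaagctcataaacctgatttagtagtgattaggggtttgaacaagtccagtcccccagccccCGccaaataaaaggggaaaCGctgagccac
The Krt87 stretch held 21 CpG, Krtap17-1 held 4 and Krt82 held 3. The median over all 21755 genes was 8 CpG in that stretch and the median of the 143 members was 2.

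The promoters of textbook epidermal keratins and of a late cornified envelope and a small proline-rich gene are printed beside them as examples without the mark. These are Krt5 (chr15:101712899-101713148), Krt14 (chr11:100207549-100207798), Krt10 (chr11:99389365-99389614), Lce1a1 (chr3:92648308-92648557) and Sprr1a (chr3:92485896-92486145), again the 250 bases upstream on the minus strand.
Krt5: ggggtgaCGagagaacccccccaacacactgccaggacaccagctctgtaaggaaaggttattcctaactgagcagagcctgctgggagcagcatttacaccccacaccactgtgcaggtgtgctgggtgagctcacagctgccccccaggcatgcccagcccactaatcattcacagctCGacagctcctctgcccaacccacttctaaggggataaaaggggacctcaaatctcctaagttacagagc
Krt14: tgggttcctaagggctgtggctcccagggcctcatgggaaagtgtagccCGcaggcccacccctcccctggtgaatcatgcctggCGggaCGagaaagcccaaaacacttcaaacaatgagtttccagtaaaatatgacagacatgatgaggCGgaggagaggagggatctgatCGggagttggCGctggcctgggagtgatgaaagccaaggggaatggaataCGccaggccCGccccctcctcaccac
Krt10: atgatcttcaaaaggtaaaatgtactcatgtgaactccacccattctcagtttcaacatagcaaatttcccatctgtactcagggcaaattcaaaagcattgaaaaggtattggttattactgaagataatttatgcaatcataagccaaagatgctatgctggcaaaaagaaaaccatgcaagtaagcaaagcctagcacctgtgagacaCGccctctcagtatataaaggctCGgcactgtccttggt
Lce1a1: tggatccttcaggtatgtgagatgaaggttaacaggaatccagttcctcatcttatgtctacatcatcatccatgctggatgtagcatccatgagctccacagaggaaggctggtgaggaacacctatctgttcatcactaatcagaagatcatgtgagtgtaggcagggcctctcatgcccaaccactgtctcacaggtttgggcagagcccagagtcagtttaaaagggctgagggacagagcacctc
Sprr1a: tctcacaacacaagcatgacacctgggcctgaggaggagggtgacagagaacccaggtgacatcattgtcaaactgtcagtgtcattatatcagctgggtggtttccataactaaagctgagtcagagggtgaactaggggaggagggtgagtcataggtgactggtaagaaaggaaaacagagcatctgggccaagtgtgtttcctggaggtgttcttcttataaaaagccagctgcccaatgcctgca
For Krt14 the stretch lies before the annotated 5' end of the gene, which may not be its main promoter, and Krt14 was marked when any annotated transcript start was used. Krt14 had 8 CpG in this stretch, more than Krtap17-1 and Krt82 and fewer than Krt87, while Krt5 and Krt10 had 2 each. Lce1a1 and Sprr1a had none. A stretch without a CpG was found at 19.6% of the 143 members and at 7.53% of all protein-coding genes. It was found at 47.6% of late cornified envelope genes, 33.3% of small proline-rich genes and 22.8% of keratin-associated genes, and at no keratin.

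The type II keratin cluster on chromosome 15, from Krt80 to Krt78 (chr15:101347444-101954287, 607 kb), held 11 of the 20 marked members. Krt4, the type II keratin of internal stratified epithelia such as the oesophagus, had 1900 bp of its 2001 bp window under peaks in replicate 1 and 1796 bp in replicate 2. Krt1, the type II keratin of the suprabasal epidermis, had 1765 and 1955 bp. Krt2, a keratin of the upper epidermal layers, had 1845 and 1265 bp. Krt87 and Krt82, hair shaft keratins, had 1601 and 1603 bp and 1274 and 1442 bp. Bases of the window under a peak of both replicates came to 1719 bp at Krt1, 1695 bp at Krt4 and 1556 bp at Krt87. They came to 1175 bp at Krt2 and 1064 bp at Krt82.

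Krt71, Krt72 and Krt73 are type II keratins of the inner root sheath, the layer that guides the growing hair. They stand side by side within the cluster and were all marked. Krt71 had 1323 bp in replicate 1 and 1231 bp in replicate 2, Krt72 had 1171 and 1640 bp, and Krt73 had 1103 and 1211 bp. Krt75, of the companion layer next to the inner root sheath and counted below with that group, had 1007 and 717 bp. It lies apart from Krt71, Krt72 and Krt73, with Krt6b, Krt6a and Krt5 between. Krt78 had 1026 and 1450 bp, and Krt90 had 973 and 390 bp, the lowest value of a marked type II keratin. All 11 type II genes therefore had at least 390 bp covered in each replicate.

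The 6 marked members of the chromosome 11 cluster were more thinly covered. Krtap17-1 was the exception, with 1705 bp in replicate 1 and 1540 bp in replicate 2, and its neighbour Krtap16-1 had 907 and 429 bp. Krt13, the type I partner of Krt4, had 360 and 805 bp, and Krt17, a keratin of skin appendages and wounded epidermis, had 466 and 291 bp. Krtap31-2 had 432 and 588 bp. Krt27, a type I keratin of the inner root sheath, had 527 and 129 bp, and no base of its window was under a peak of both replicates, the single such case among the 20. The 3 marked members on chromosome 7 were Krtap5-4 with 1728 and 1590 bp, Krtap5-3 with 417 and 822 bp and Krtap5-1 with 597 and 159 bp. They encode hair proteins very rich in cysteine.

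**Figure D1:**
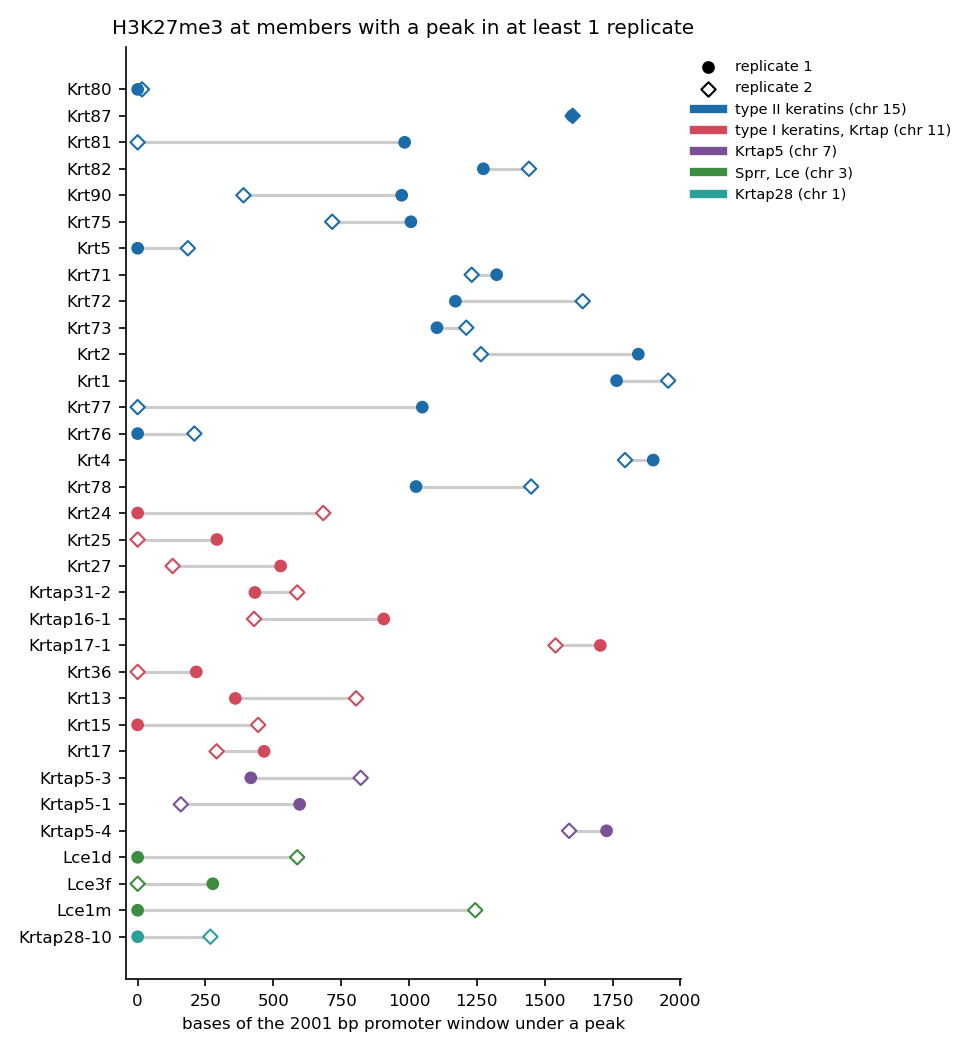
Bases of the 2001 bp promoter window under a peak (horizontal axis, bp) for each of the 33 members with a peak in at least 1 replicate, in chromosomal order within each cluster. Filled circles are replicate 1, open diamonds are replicate 2, colours give the cluster; type II keratins and Krtap17-1 and Krtap5-4 hold the high values in both replicates, and the symbols at 0 belong to the 13 members with a peak in a single replicate.

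Across the 20 marked members the median covered length was 1064.5 bp in replicate 1 and 1221 bp in replicate 2, close to the medians of all marked genes (1251 and 1200 bp). The deposited signal of the highest peak in the window was lower. It ranged from 2.89 to 7.52 in replicate 1 with a median of 5.09, beside a median of 7.67 over all 5679 marked genes. In replicate 2 it ranged from 3.47 to 8.96 with a median of 5.21, beside 7.56. In 19 of the 20 the signal was under the all-gene median in both replicates. The exception was Krt87, which was under it in replicate 1 (7.52) and above it in replicate 2 (8.96). Krt13 and Krt17 had the lowest signals in replicate 1, at 2.89 and 2.92, and stood at 5.28 and 5.21 in replicate 2. The annotated 5' end itself was covered in both replicates at 8 of the 20, beside 36.7% of all marked genes.

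The 3 keratins that the naming rule leaves out were all marked, and their signals were higher than those of most members. Krt8 and Krt18, the keratin pair of simple epithelia, had signals of 12.3 and 12.6 in replicate 1 and of 8.39 and 12.4 in replicate 2. Krt7, of simple and glandular epithelia, had 8.22 in replicate 1 and 11.9 in replicate 2. In replicate 1 all 3 were above every member, and in replicate 2 Krt8 was below Krt87. The window of Krt8 was covered over 2001 and 1912 bp, of Krt18 over 1775 and 1833 bp and of Krt7 over 1055 and 1363 bp. In contrast, the 3 keratins of simple epithelia among the members, Krt19, Krt20 and Krt23, had no peak in the window. At Krt19 the nearest region covered in both replicates lay 1877 bp from the 5' end and 35.2% of the gene was under such regions. Krt19 was marked with any annotated transcript start and with windows of 2.5 kb on each side. In the relaxed lists, described below, both replicates had a peak in its window (335 and 173 bp). The contrast at Krt19 therefore depends on the window and the list used.

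By site of expression, 7 of 22 keratins of stratified epithelia were marked (31.8%), a share near the 26.1% of all protein-coding genes. For the inner root sheath it was 5 of 8 (62.5%) and for the hair shaft 2 of 16 (12.5%). The counts by site also follow the cluster. The inner root sheath keratins on chromosome 15 were all marked, and of those on chromosome 11 only Krt27 was. Both marked hair shaft keratins, Krt87 and Krt82, lie on chromosome 15. The partners of a keratin pair did not always share the mark. Krt4 and Krt13 were both marked. Krt1 was marked and its suprabasal partner Krt10 had no peak in either replicate, with the nearest region covered in both 16679 bp away. Krt5 and Krt14 form the pair of the basal epidermal layer. Krt5 had 185 bp under a peak in replicate 2 and none in replicate 1. Krt14 had no peak in its window, although a region covered in both replicates lay 2239 bp from the 5' end and 27.2% of the gene body was under such regions. With any annotated transcript start in place of the gene's 5' end, Krt14 and Krt19 were marked, as was Krt79.

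The replicates disagreed at 13 members. Among keratins, replicate 1 alone covered 1049 bp at Krt77 (a sweat duct keratin), 984 bp at the hair cortex keratin Krt81, 292 bp at the inner root sheath keratin Krt25 and 216 bp at the hair keratin Krt36. Replicate 2 alone covered 684 bp at Krt24, 444 bp at Krt15 (a basal keratin of the hair follicle bulge), 209 bp at Krt76, 185 bp at Krt5 and 16 bp at Krt80. Outside the keratins, replicate 2 alone covered 1244 bp at Lce1m, 588 bp at Lce1d and 268 bp at Krtap28-10, and replicate 1 alone covered 277 bp at Lce3f. Only Lce1m and Krt77 had more than 1 kb in 1 replicate and none in the other. In the relaxed lists, which hold more peaks, 11 of these 13 had a peak in both replicates, the exceptions being Krt36 and Krt80.

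In those relaxed lists, 41 of the 143 (28.7%) had a peak in both replicates, beside 33.3% of all genes. No relaxed peak in either replicate was found at 89 (62.2%), beside 60.0% of all genes. The small proline-rich genes had none, at 0 of 15. The late cornified envelope genes had 3 of 21 with a relaxed peak in both, which were Lce1d, Lce1m and Lce3f. Among type II keratins the count rose from 11 to 18 of 23, and among type I keratins from 3 to 11 of 27.

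The 143 genes formed 7 clusters when neighbours under 500 kb apart were joined, and the clusters differed widely in how much of their length was covered. Bases covered in both replicates made up 8.45% of the chromosome 15 cluster (13.5% in replicate 1 and 14.6% in replicate 2) and 6.44% of the Krtap5 cluster on chromosome 7, which runs from Krtap5-2 to Krtap5-4 (chr7:142174535-142304594, 130 kb). They made up 0.859% of the cluster on chromosome 11 from Krt222 to Krt42 (chr11:99232761-100269871, 1037 kb). The cluster on chromosome 3 from Sprr2a1 to Lce1m (chr3:92215799-93019060, 803 kb) had 0.0645% covered, in 2 regions outside the windows and bodies of members. The nearer to a member lay 1679 bp from the 5' end of Lce1d. The chromosome 16 cluster from Krtap24-1 to Krtap11-1 (chr16:88610705-89571183, 960 kb) had 0.0231%, in 1 region. The 3 genes from Krtap12-1 to Krtap10-10 on chromosome 10 and the pair Krtap28-10 and Krtap28-13 on chromosome 1 had no base covered in both. The share over the sequenced autosomes and X was 1.53%, so the chromosome 15 and 7 clusters stood above it and the other 5 below it. For chromosome 11 that direction turned with the list. It had 5.0% covered against 3.65% of the genome in the replicated list of the first run, 4.86% against 3.34% in that of the second run and 4.68% against 3.35% in the list of both libraries together. In replicate 2 alone it had 2.32% against 2.28%, and in replicate 1 alone 2.01% against 2.10%.

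**Figure D2:**
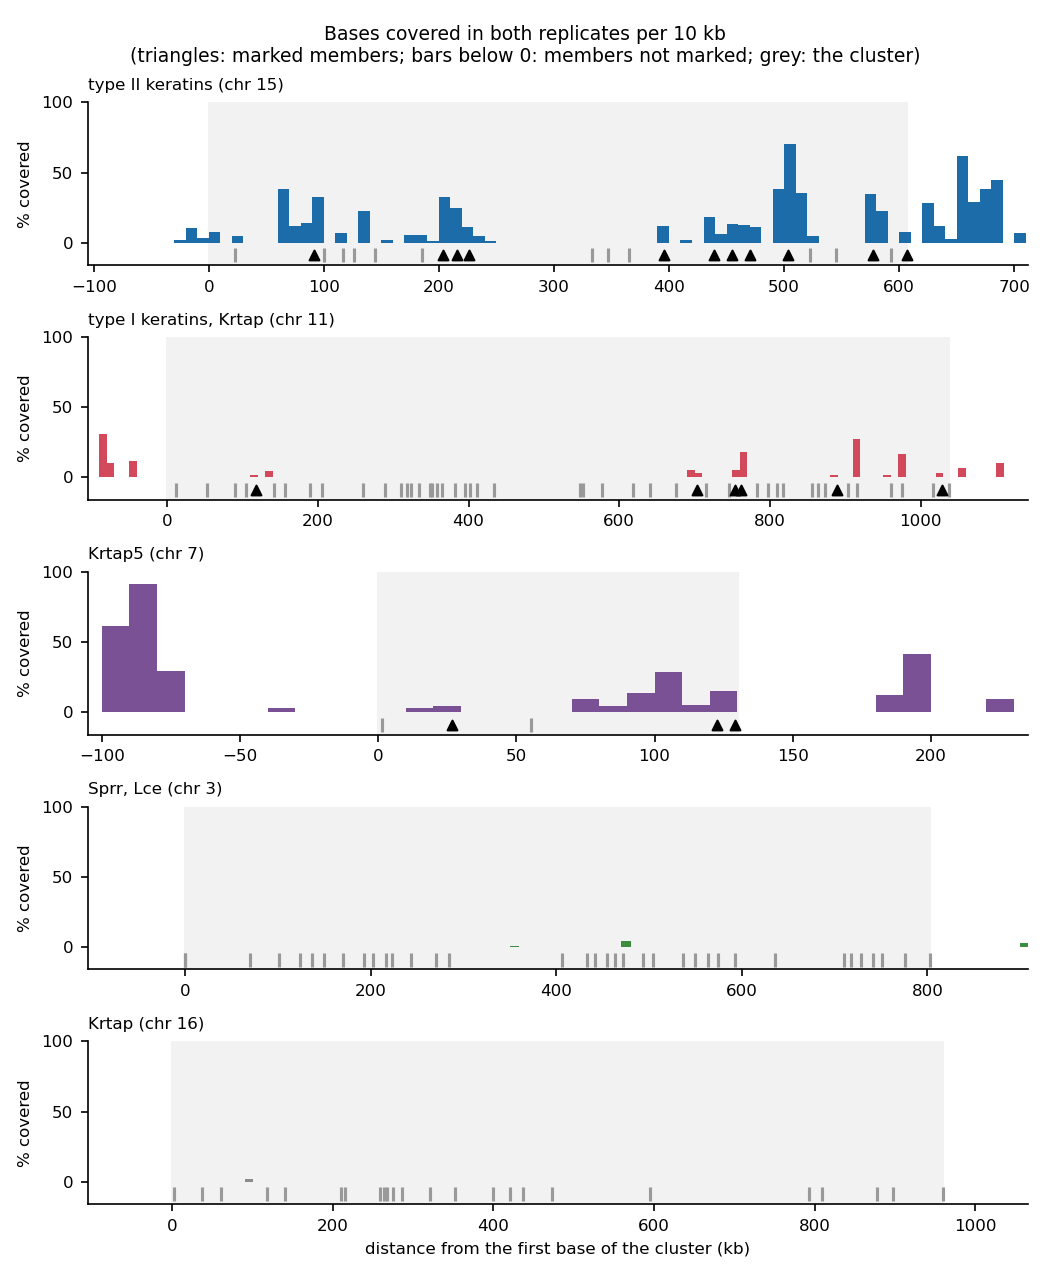
Percent of each 10 kb bin covered by peaks of both replicates (vertical axis) against distance in kb from the first base of the cluster, for the 5 larger clusters with 100 kb on each side. Triangles are marked members, short grey lines are members not marked and the grey field is the cluster; the chromosome 15 panel shows covered blocks on both sides of a bare middle, and the chromosome 3 and 16 panels are almost bare.

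The chromosome 15 cluster had 85 regions covered in both replicates, the longest of 4200 bp. Peaks had medians of 547 and 373 bp in replicates 1 and 2, and a region here is where both lists overlap. The number of regions therefore cannot tell whether a single broad domain lies over the cluster. The windows of its members had 24.7% of their bases covered in both replicates and those of all 143 members 5.64%, beside a mean of 13.6% for the windows of all protein-coding genes. Of the covered bases, 21.7% lay in member windows, 43.3% in the bodies of member genes outside those windows and 32.5% elsewhere. Krt1 had 89.0% of its body covered and Krt4 had 42.8%, whereas Krt78 had 4.71% and Krt71 had 9.78%.

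A stretch of 155 kb within that cluster (chr15:101587533-101742092) had no base covered in both replicates. Its members are Krt6b and Krt6a, keratins induced in wounded epidermis, and Krt5. On the side of Krt80, 10 members with 4 marked lay in 240 kb of which 9.49% was covered. On the side of Krt78, 10 members with 7 marked lay in 212 kb with 13.4% covered. These blocks were delimited by the covered bases themselves and are given as a description. Within the stretch, 65.7% and 66.6% of the 32-base words in the windows of Krt6b and Krt6a occur once in the genome. The share was 87.4% at Krt5, and the median over all genes was 99.0%. The part of sequence copies in the missing peaks was not tested. In the relaxed lists both replicates had a peak at Krt6a (403 and 262 bp) and at Krt5 (239 and 335 bp), and 0.976% of the stretch was covered in both. Krt5 was also marked in the replicated list of the first run and in the list of both libraries together. Krt6a was marked in the replicated lists of both runs. In the lists used for the calls, replicate 1 covered 0.470% of the stretch and replicate 2 covered 1.26%. The bareness therefore holds only for bases shared by those lists of the replicates.

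Chromosome 11 had a longer bare stretch of 558.3 kb (chr11:99372686-99931027), with 25 members from Krt28 to Krtap31-1 and no mark on any of them, nor a peak of a single replicate in their windows. It includes Krt10, Krt20, Krt23 and most of the keratin-associated genes of that cluster. In the relaxed lists both replicates had a peak at Krt12 (290 and 127 bp), which lies in it, and 0.251% of the stretch was covered in both. Krt12 was also marked in the replicated list of the first run. Krt40, in the stretch too, was marked in the replicated lists of both runs and in the list of both libraries together. Krt28 was marked with windows of 2.5 kb. Of the 5 members before it, Krt27 was marked. Of the 20 members after it 5 were marked (Krtap31-2, Krtap16-1, Krtap17-1, Krt13 and Krt17), in 339 kb with 2.45% covered. The longest bare stretch on chromosome 16 was 863 kb with 21 keratin-associated genes, and the one on chromosome 3 was 356 kb with all 15 small proline-rich genes. These stretches were also delimited by the covered bases, so the lack of marks within them is largely set by that choice.

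Covered regions came closest to the edges of the chromosome 15 cluster, and at the edges of the other 6 the nearest one lay 18.7 to 319 kb away. To the right of Krt78, a region covered in both replicates began 0.505 kb past the edge, and the next protein-coding gene was the marked Krt8 at 50.2 kb. To the left of Krt80 the nearest such region was 9.70 kb away and the nearest marked gene was Grasp, a synaptic scaffold gene, at 123 kb. The 500 kb on each side had 10.7% and 10.2% of their bases covered, slightly more than the 8.45% of the cluster, and 12 of the 30 other genes there were marked. Inside the cluster the non-member genes Krt7 and Gm49425 were marked.

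On chromosome 11, the left edge lay 1.74 kb from the unmarked Smarce1, which encodes a chromatin remodelling subunit, and the nearest marked gene was the chemokine receptor gene Ccr7 at 77.7 kb. On the right the unmarked translation factor gene Eif1 came at 50.01 kb and the marked P3h4 at 145 kb. The flanks had 6.30% and 4.07% of their bases covered, more than the 0.859% inside, with 11 of 35 genes marked (31.4%). None of the 18 other protein-coding genes inside this cluster was marked. All 18 carry Gm or Rik names and lie in the bare stretch that holds most of its keratin-associated genes.

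At the chromosome 3 cluster the next genes past the edges, Lelp1 at 73.1 kb and Gm4858 at 49.8 kb, were unmarked, and 2 of the 12 other genes within 500 kb were marked. To the left, 133 kb from Sprr2a1, Lor (loricrin, the main protein of the cornified envelope) had 1842 and 1831 bp covered, with signals of 10.96 in replicate 1 and 10.1 in replicate 2. To the right, 423 kb from Lce1m, Tchh (trichohyalin, of the inner root sheath) had 1124 and 859 bp with signals of 12.3 and 11.6. Both had signals above every member in each replicate. Between Sprr2a1 and Lce1m no protein-coding gene was marked, and Ivl (involucrin) had 1 bp under a peak of replicate 2. The flanks of 500 kb had 0.865% and 1.49% covered.

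The remaining edges were as follows. On chromosome 7 the nearest marked genes were Gm45337 at 29.9 kb and Ifitm10 at 69.2 kb, the flanks had 6.81% and 13.1% covered, and Gm10153 and Gm2431 inside the cluster were marked. On chromosome 10 they were Tspear at 34.0 kb and Lrrc3 at 65.3 kb. On chromosome 16 they were the glutamate receptor gene Grik1 at 320 kb and Tiam1 at 573 kb, and 2310061N02Rik inside the cluster was marked. On chromosome 1 they were the collagen gene Col4a3 at 455 kb and Sphkap at 346 kb. Over all 7 clusters, 45 of 147 other genes within 500 kb of an edge were marked (30.6%), beside 26.1% of all protein-coding genes. Of the other genes inside the clusters, 5 of 64 were marked (7.81%). CpG content was not matched between these shares, and their difference was not tested.

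The members had few CpG. The CpG ratio, which is the CpG count over 500 bp on each side of the 5' end divided by that expected from C and G content, had a median of 0.187 over the 143, against 0.558 over all genes, and was under that median at 142 of them. Marked members had a median of 0.321 and the other members 0.168. All genes were also sorted into 10 equal classes by the ratio. In the lowest 3 classes 7 of 101 members were marked (6.93%), beside 9.62% of other genes, and in the other 7 classes 13 of 42 (31.0%), beside 33.2%. Averaging the marked share of other genes in each member's class gives 15.8% for the 143, beside the 14% observed.

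**Figure D3:**
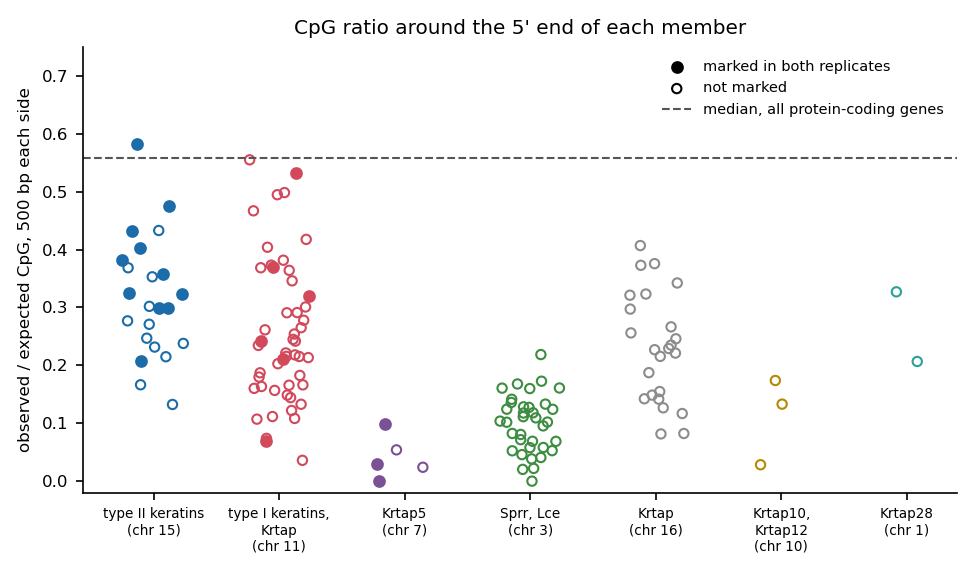
CpG ratio over 500 bp on each side of the 5' end (vertical axis) of every member by cluster, filled when marked in both replicates; the dashed line is the median of all protein-coding genes, 0.558. Marked genes on chromosome 15 lie between 0.208 and 0.583, the 3 on chromosome 7 at or below 0.0991, and the 36 members on chromosome 3 reach 0.219 at most.

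Set beside that average, the clusters differed. On chromosome 15 it was 25.4% and 47.8% were marked. There 10 of 16 members in the upper 7 classes were marked, and 1 of 7 in the lowest 3, which was Krt78. On chromosome 11 it was 19.1% with 12.0% marked, and on chromosome 16 it was 16.8% with none of 24 marked, including 7 in the upper classes. On chromosome 3 all 36 members were in the lowest 3 classes, where the average was 6.47%, and none was marked. On chromosome 7 the average was 4.02% and 3 of 5 were marked, at CpG ratios of 0.0288, 0 and 0.0991 for Krtap5-3, Krtap5-1 and Krtap5-4. With Krtap31-2 at 0.0687, those were the 4 marked members of the lowest class, and all 4 were keratin-associated genes.

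**Figure D4:**
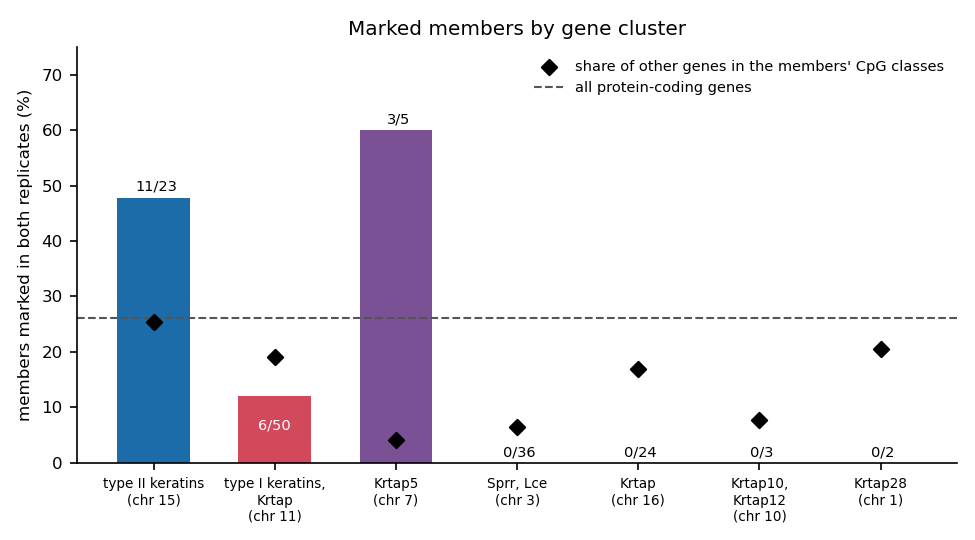
Percent of members marked in both replicates (bars, with marked and total members) for the 7 clusters. The dashed line is the 26.1% of all protein-coding genes and diamonds are the mean marked share of other genes in the members' CpG classes; bars exceed both on chromosomes 15 and 7, and fall under both in the other 5 clusters.

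Near-identical copies limit what can be read in some windows. By 32-base words, 5 of the 143 windows had under 50% of positions occurring once in the genome. These were Sprr2a1 and Sprr2a2 (1.62% each, with overlapping windows), Sprr2a3 (8.17%), Krtap4-13 (30.2%) and Krtap5-2 (47.4%), and none of the 5 had a peak. At 32 of the 36 members on chromosome 3 at least 75% of positions occurred once, and none of these was marked. The Krtap5 genes had a median of 60.7%, and the marked Krtap5-3 and Krtap5-1 had 60.7% and 52.7%. Whether reads of other copies add to their peaks was not tested.

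Other genes of the skin barrier were taken from lists of their function and are set beside the 26.1% of all protein-coding genes. Of other genes of the epidermal differentiation complex region and their relatives, 7 of 29 were marked (24.1%), a share near that background. They were led by Tchh, Lor, Krtdap and S100a1, while Crct1 and Crnn had no peak. Of genes for envelope crosslinking and desmosomal plaques, 9 of 16 were marked (56.2%), led by the plaque genes Ppl, Pkp1 and Evpl with Cnfn, while Casp14 and Cdsn had no peak. Ppl (periplakin) had 1986 and 1771 bp covered with signals of 13.7 and 16.5. Of lipid barrier and protease genes, 6 of 14 were marked (42.9%), among them Elovl4, Alox12b, St14 and Cldn1, and not Abca12 or Cers3.

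Of the transcription regulators of epidermis and hair, 22 of 25 were marked (88.0%). Msx2 had 2001 and 1928 bp covered with signals of 14.8 and 13.6, and Tfap2a had all 2001 bp covered in both replicates. Tfap2b and Ovol1 followed in signal. Klf4, Trp63 and Zfp750 had no peak in the window around the annotated 5' end of the gene. That call does not cover any other transcript start they may have. Of other intermediate filament genes, 9 of 15 were marked (60.0%), with Nes, Prph, Nefh and Des leading and Bfsp2 and Gfap without a peak. The difference in the marked share between these lists and the members was not tested.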

How the data were processed

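H3K27me3 peak lists of 2 biological replicates were used as the authors deposited them. The mm10 lists belong to 2 processing runs, per the file headers. Calls rest on the pseudoreplicated list of either replicate, made from that library alone. The relaxed, replicated and joint lists served as alternatives, and a list on mm9 was not used because its build differs. Aligner, peak caller, thresholds and control: not given in the sources used here. The authors' signal value of each peak has an unstated scaling and only described and ranked peaks within a list. The deposited −log10 q values served as an alternative filter. Read depth is unknown, so counting intervals could not be given, and a missing peak can mean too few reads.

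Genes and their 5' ends came from GENCODE mouse release 21, and sequence from the RefSeq GRCm38 assembly, on 19 autosomes and X. An overlap of at least 1 bp counted. Clusters joined members under 500 kb apart. Uniqueness was the percent of 32-base words found once on either strand of the genome. For all genes it was sampled at every 20th position. The computation used Python 3.11.15, NumPy 2.4.6, pandas 2.3.3, Numba 0.67.0 and Matplotlib 3.10.9, and was tested on simulated data.

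The members and gene lists were chosen with earlier results of these data known. Named genes were all marked members, up to 12 with a peak in a single replicate, the first and last of each cluster, Krt1, Krt5, Krt10, Krt14, the 3 keratins left out, the nearest marked gene at each edge, and up to 4 marked and 2 unmarked genes per list. Krt19, Krt20, Krt23, Krt6a, Krt6b, Krt79, the members with the lowest uniqueness, the nearest unmarked genes at some edges and the marked genes inside clusters were named after their values were seen, as were Ivl and Zfp750. Alternatives were windows of 0.5 kb and 2.5 kb, 50% of the window covered, a −log10 q of at least 2, the other lists, each replicate alone and any transcript start. Promoter sequences printed were those of the marked members with the highest signal ranks and of fixed unmarked examples, and 1 of those the rule takes is not reported here.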

Additional observations from a re-analysis of the deposited data

How the results depend on the processing

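The 20 marked members became 11 under the rule that both replicates cover at least 50% of the window (14% of all genes then), 41 in the relaxed lists (33.3%), 42 and 39 in the replicated lists of the first and second run (34.2% and 33.2%) and 37 in the list of both libraries together (33.2%). Replicate 1 alone gave 25 (27.8% of all genes) and replicate 2 alone gave 28 (30.2%). Windows of 0.5 kb gave 17 (21.4%) and of 2.5 kb gave 29 (30.7%). Any transcript start gave 23 (29.4%), and a −log10 q of at least 2 changed no member. Under all 11 alternatives, 11 of the 20 kept the mark, which were Krtap17-1, Krt87, Krt82, Krt71, Krt72, Krt73, Krt2, Krt1, Krt4, Krt78 and Krtap5-4. Members with a peak in a single replicate fell from 13 to 3 under that rule. The covered share of the chromosome 15 cluster, 8.45%, was 13.2% in the relaxed lists, 26.5% and 23.6% in the replicated lists and 23.6% in the joint list, and 13.5% to 14.6% with a single replicate. No small proline-rich gene was marked under any of these, whereas Lce1d, Lce1m and Lce3f were marked in the relaxed, replicated and joint lists. Krtap11-1 on chromosome 16 and Krtap28-10 on chromosome 1 were also marked in those lists. Krtap13-1 on chromosome 16 was marked in the relaxed lists. The lack of marked members on chromosomes 16 and 1 therefore depends on the list. The cause of these shifts was not tested. No paired analysis was possible because there is a single group.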
